A study of Mus musculus with 2 samples.

Results

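The replication-dependent histone genes and the replacement histone variants were described in total RNA of the adrenal gland. Members were every gene whose symbol starts with Hist1h to Hist4h, or is H2afz, H2afx, H2afy, H2afv, H2afj, H3f3a, H3f3b or H1f0, and that has a protein-coding transcript. The rule gave 75 of the 55536 genes in the gene tables. Of these, 67 were replication-dependent, with 6 H1, 18 H2A, 18 H2B, 12 H3 and 13 H4 genes, and 8 were replacement variants. The rule read names and annotation and used no measured value.

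The series holds 1 group, adrenal glands of B6CASTF1/J females at 10 days of age, a first-generation cross between strains C57BL/6J and CAST/EiJ. It was sequenced in 2 libraries, replicate 1 and replicate 2, each from 300 ng of RNA made with a directional kit, and the labels name ERCC spike-ins for ribosome-reduced libraries. There is no second condition, so levels within the tissue and the spread between the libraries can be given. Each tissue sample is labelled as a different female, but both library descriptions carry 1 female number, 1 cDNA number and 1 donor entry. Whether n = 2 stands for separate animals is not known, so no SD below can be taken as spread between animals. The libraries also differed in markers of neighbouring tissues, which are given below. No allele of either parent strain was separated in the files.

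Histones package DNA into nucleosomes, whose core holds H2A, H2B, H3 and H4, while H1 binds the linker DNA. Replication-dependent histone genes are small, mostly intronless and clustered, and are transcribed in S phase. Their mRNAs do not end in a poly(A) tail but in a conserved stem-loop that is bound by SLBP, the stem-loop binding protein, and is cut under direction of the U7 small nuclear ribonucleoprotein. Replacement variants such as H3.3, H2A.Z and H1.0 come from scattered genes with polyadenylated mRNAs that are made throughout the cell cycle and in cells that have stopped dividing. Total RNA libraries, unlike poly(A)-selected ones, retain both kinds of mRNA.

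The stem-loop is the sequence that sets the replication-dependent mRNAs apart, so the annotated transcripts were searched for it. The search took any 16-base window within 100 bases after the stop codon that starts with GG, whose first 6 and last 6 bases pair, and whose 4-base loop starts with TT. Each line below gives 1 example from GENCODE M21 transcripts on mm10, 5′ to 3′ on the mRNA strand, with the stem-loop in capitals and up to 5 flanking bases in lower case.
Hist1h1c: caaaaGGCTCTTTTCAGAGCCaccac
Hist2h2aa2: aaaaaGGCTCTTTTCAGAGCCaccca
Hist2h2ac: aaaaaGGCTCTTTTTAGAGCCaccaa
Hist1h2bg: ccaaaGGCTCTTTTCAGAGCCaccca
Hist1h2bk: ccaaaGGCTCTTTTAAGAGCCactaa
Hist1h3b: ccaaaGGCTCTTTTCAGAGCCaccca
Hist1h4h: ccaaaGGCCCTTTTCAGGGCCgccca
Hist1h4i: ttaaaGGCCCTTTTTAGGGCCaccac
Hist1h4b: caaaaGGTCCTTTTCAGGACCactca
H2afx: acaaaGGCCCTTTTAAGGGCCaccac
They lie in the 3′ UTR, for Hist1h1c at chr13:23739512-23739527 on the plus strand, for Hist2h2aa2 at chr3:96239784-96239799 on the minus strand, for Hist1h4h at chr13:23531458-23531473 on the plus strand and for H2afx at chr9:44335240-44335255 on the plus strand.

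The stem-loop was found in 44 of the 50 replication-dependent genes with at least 50 annotated bases after the stop codon (88%). The other 17 replication-dependent genes have fewer annotated bases there, and 13 of them have none, so the search says nothing of them. Among 20616 other protein-coding genes, 7 held such a window (0.034%). In the 44 genes the stem-loop began at base 22 to 59 after the stop codon, with a median of base 32. The most frequent form, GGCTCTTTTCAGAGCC, was found in 26 genes of types H1, H2A, H2B and H3, and in no H4 gene. The 11 H4 genes with a stem-loop carried 3 other forms, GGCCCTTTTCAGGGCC in 7, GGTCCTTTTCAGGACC in 2 and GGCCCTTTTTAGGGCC in 2. Of the 8 replacement variants only H2afx, which encodes the DNA damage marker H2A.X and is known to give both stem-loop and polyadenylated mRNAs, held one. In 18 of the 44 genes the annotated transcript runs more than 200 bases past the stem-loop, up to 4884 bases in Hist1h1d, which lengthens the model that counts are divided by.

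Promoters were compared in the same way, in the first listed RefSeq promoter of each gene on GRCm38.p6, from 250 bases before to 50 after the start. Of the 67 replication-dependent genes 62 matched a promoter by gene number, as did 7 of the 8 replacement variants. TATAAA was found on either strand in 35 of the 62 replication-dependent promoters (56.5%), in 1 of the 7 replacement variant promoters and in 14.2% of all 27025 promoters. CCAAT, the letters known as the CCAAT box, was found in 53 of the 62 (85.5%), in 5 of the 7 and in 37.9% of all promoters.

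The libraries held 35636846 and 33378436 expected counts in replicates 1 and 2. All 8 adrenal cortex markers and all 8 chromaffin markers were detected at 1 TPM or more in both libraries. Their summed levels were 4005.2 and 4373.9 TPM for the cortex and 1072.2 and 1037.3 TPM for chromaffin cells. Markers of neighbouring tissues were also present and differed between the libraries. The 8 liver markers summed to 5637.6 and 1092.2 TPM, and all 8 passed the threshold in replicate 1, which is at least 2-fold with an adjusted p under 0.05 in an exact binomial test between the libraries. The 8 skeletal muscle markers summed to 3292.8 and 1107.1 TPM, with 6 past the threshold in replicate 1 and 1 in replicate 2. The 10 red cell markers summed to 4645.7 and 2740.2 TPM with 5 past it in replicate 1, and the 10 lymphocyte markers to 37.4 and 19.6 TPM with 4 past it in replicate 1 and 1 in replicate 2. The 10 kidney markers summed to 1.17 and 233 TPM, all 10 past the threshold in replicate 2. The 6 brown fat markers summed to 3157.8 and 3757.9 TPM, none past it. No marker of these lists was at 0 in both libraries. The part of these cells in the histone differences between the libraries was not tested.

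Replication-dependent histone mRNAs were detected, at 1 TPM or more in both libraries, from 62 of 67 genes, and replacement variants from 8 of 8. Summed TPM, a scaled level per length of transcript, was 5344.6 and 4651.5 for the replication-dependent genes in replicates 1 and 2, and 699.6 and 678.2 for the replacement variants. The replication-dependent sum was 7.24-fold the replacement sum, with a log2 ratio of replacement over replication-dependent levels of -2.86 ± 0.11 (SD, n = 2). In expected counts, which are not divided by length, it was 3.24-fold, and in the estimated counts of the other deposited quantification, a second transcript table from the same libraries, 2.18-fold. These genes took 0.25% and 0.216% of all counts in replicates 1 and 2. In a bulk tissue, more cells in S phase and more histone mRNA per cell cannot be told apart.

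**Figure D1:**
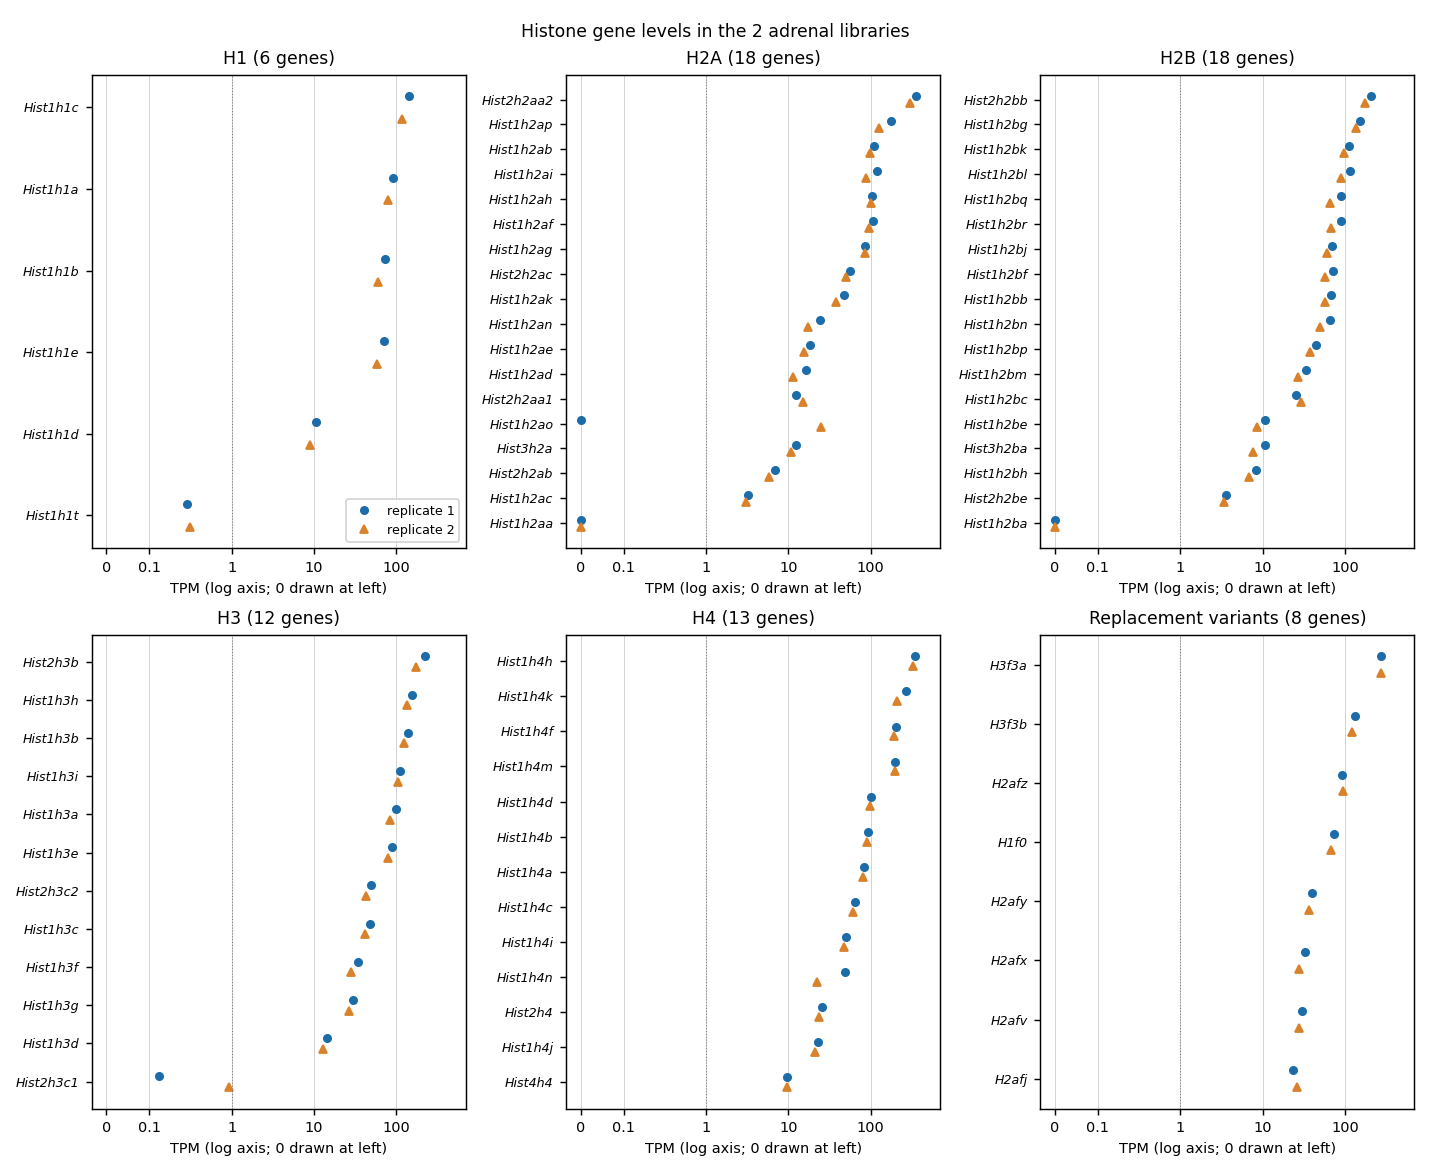
TPM of every member in the gene table (horizontal, log axis, 0 drawn at the left end), by histone type, with circles for replicate 1 and triangles for replicate 2 and a dotted line at 1 TPM. The highest gene of each panel stands above 100 TPM in replicate 1, and the 2 libraries lie close together except for Hist1h2ao, Hist2h3c1 and Hist1h4n.

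The plot of every member by library shows how uneven the replication-dependent genes were. Mean TPM was at least 100 for 20 genes, between 10 and 100 for 35, between 1 and 10 for 8 and under 1 for 4. The 10 highest genes held 42.9% of the summed mean TPM of the 67, and 13 genes held 50%. The 5 genes that missed detection were Hist1h1t, Hist1h2aa, Hist1h2ba, Hist1h2ao and Hist2h3c1. The first 3 of these were named after their values were seen and encode testis histones. Hist1h1t had 8 counts in each library, and Hist1h2aa and Hist1h2ba had 0 in the gene table. For Hist1h2aa a count of 0 allows up to 3 counts. That limit does not bound Hist1h2ba, which had 172.9 and 108.8 TPM in the other quantification.

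Linker histone H1 genes summed to 388 and 324 TPM in replicates 1 and 2. Hist1h1c, which encodes H1.2, led with 142 and 117 TPM. Hist1h1a, for H1.1, followed with 90.5 and 80.6 TPM. Hist1h1b, for H1.5, had 72.4 and 59.7 TPM and Hist1h1e, for H1.4, had 71.7 and 58.1 TPM. All 4 were higher in replicate 1 on the TPM scale, and in the gene table their order was the same in both libraries. In the other quantification Hist1h1c had 158 and 128 TPM and Hist1h1a 152 and 133 TPM, an order that changed between the libraries. The other 2 H1 genes, Hist1h1d and Hist1h1t, had 10.8 and 0.29 TPM in replicate 1 and 8.94 and 0.31 TPM in replicate 2. Hist1h1d is annotated with 7425 bases and held 2650.5 and 2048.1 counts, more than Hist1h1a with 1956 and 1617, so its place in the order differs between levels and counts. It was named after its values were seen. In TPM of the gene table Hist1h1b and Hist1h1e did not differ from each other beyond their spread between the libraries. In the other quantification Hist1h1b had 143 and 112 TPM, against 87.9 and 68.5 TPM for Hist1h1e. In expected counts Hist1h1e was the higher, with 4416.4 and 3325.4 against 1569 and 1202. Summed H1 levels were lower than those of the 61 core genes, with a log2 ratio of H1 over core histones of -3.71 ± 0.05 (SD, n = 2) on the TPM scale. On the scale of counts, which grow with length, that ratio was -2.07 ± 0.07.

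H2A genes summed to 1255.8 and 1094.8 TPM. In the gene table Hist2h2aa2 led them with 354 and 306 TPM in replicates 1 and 2, followed by Hist1h2ap with 177 and 128 TPM. Hist1h2ab stood at 110 and 98.0 TPM and Hist1h2ai at 120 and 88.5 TPM, an order that changed between the libraries. The other 14 H2A genes ranged over 0 to 107 TPM in replicate 1 and 0 to 100.4 TPM in replicate 2 in the gene table. Hist1h2ad, named after its values were seen, had 16.2 and 11.5 TPM there. In the other quantification it had 437 and 360 TPM, above Hist1h2ap with 225 and 200 TPM. Hist2h2aa2 lies at chr3:96239749-96240276 in the Hist2 cluster and has a near-identical neighbour, Hist2h2aa1, at chr3:96245497-96246082. Their coding sequences are identical, and every 100-base window of Hist2h2aa2 occurs in Hist2h2aa1. The pair summed to 365.9 and 321.2 TPM in the gene table and to 707 and 602.4 TPM in the other quantification. Hist2h2aa2 had 0 TPM in both libraries in the other quantification.

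H2B genes summed to 1180.4 and 984 TPM. In the TPM of the gene table Hist2h2bb had the highest level with 209.7 and 176 TPM, then Hist1h2bg with 152 and 137 TPM. In the other quantification Hist2h2bb had 158 and 131 TPM, below Hist1h2bb with 289 and 218 TPM and Hist1h2bf with 267 and 213 TPM, both named after their values were seen. Hist1h2bk stood at 111 and 98.3 TPM and Hist1h2bl at 116 and 91.0 TPM. All 4 had the higher TPM in replicate 1. The other 14 H2B genes ranged over 0 to 90.8 TPM in replicate 1 and 0 to 68.6 TPM in replicate 2. The partners H2A and H2B, which join the nucleosome as dimers, were close in summed level, with a log2 ratio of H2A over H2B of 0.12 ± 0.05 (SD, n = 2). In the other quantification it was 0.66 ± 0.07.

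H3 genes summed to 997 and 860.1 TPM. Hist2h3b led with 225 and 175 TPM, followed by Hist1h3h with 156 and 136 TPM, Hist1h3b with 140.0 and 125 TPM and Hist1h3i with 109.8 and 106 TPM. The other 8 H3 genes ranged over 0.13 to 99.5 TPM in replicate 1 and 0.92 to 85.2 TPM in replicate 2. In the other quantification Hist2h3b also led, with 372 and 288 TPM. There Hist1h3b, with 302 and 263 TPM, stood above Hist1h3h, with 138 and 133 TPM. In the gene table H4 genes had the highest sum of any type, 1523.1 and 1388.4 TPM. Hist1h4h led with 351 and 331 TPM, then Hist1h4k with 269.9 and 212 TPM, Hist1h4f with 204 and 192 TPM and Hist1h4m with 196 and 198 TPM. The other 9 H4 genes ranged over 9.63 to 103 TPM in replicate 1 and 9.62 to 98.3 TPM in replicate 2. In the gene table Hist1h4f and Hist1h4m were closer to each other than their spread between the libraries. In the other quantification Hist1h4f had 37.4 and 21.5 TPM, against 218 and 197 TPM for Hist1h4m. Hist1h4h led there too, with 857 and 828 TPM. The log2 ratio of H4 over H3 was 0.65 ± 0.06 (SD, n = 2) in TPM and -0.61 ± 0.08 in the estimated counts of the other quantification, so its sign turned with the quantification and scale.

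Most of this output came from 2 places in the genome. The Hist1 cluster on chromosome 13, from 21715763 to 23934851 in mm10, held 54 members and 4368.6 and 3824.3 TPM. It is split by a gap, with 1487836 bases between the starts of the members on either side. The 23 members before the gap summed to 2106.5 and 1786.7 TPM and the 31 after it to 2262.1 and 2037.6 TPM. The Hist2 cluster on chromosome 3, from 96219865 to 96270132, held 10 members and 943 and 799 TPM. The 2 Hist3 genes on chromosome 11 summed to 23.0 and 18.5 TPM, and Hist4h4 on chromosome 6, the 1 gene of its cluster and named after its values were seen, had 9.63 and 9.62 TPM.

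**Figure D2:**
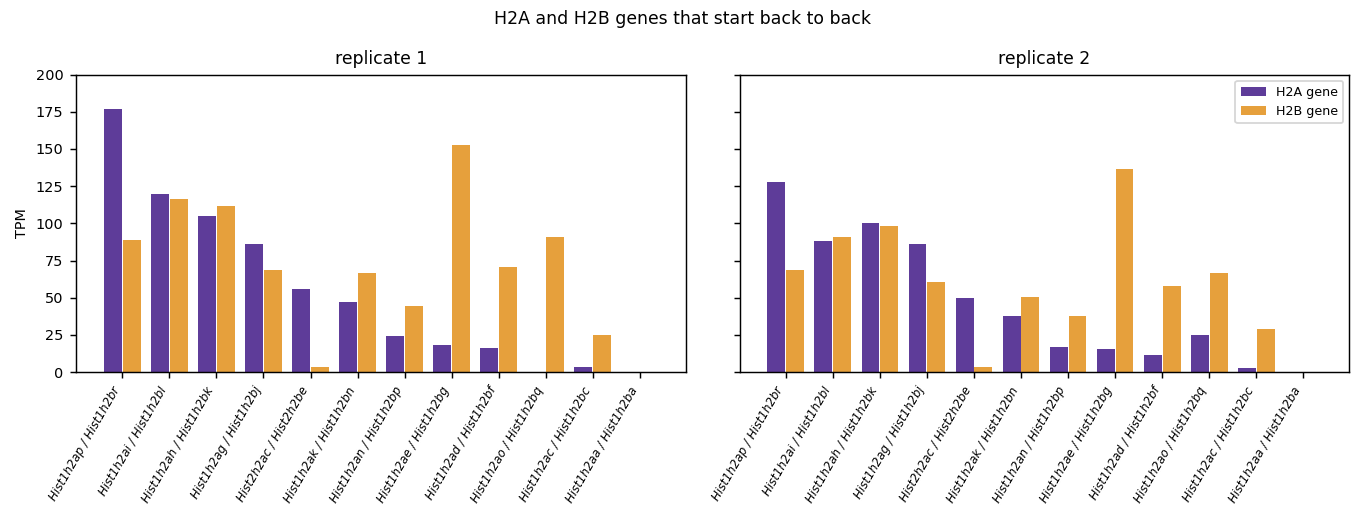
TPM in the gene table (vertical) of the 12 pairs of an H2A and an H2B gene that start back to back, with replicate 1 in the left panel and replicate 2 in the right, ordered by the level of the H2A gene. Hist1h2ai with Hist1h2bl and Hist1h2ah with Hist1h2bk have bars of nearly equal height, while Hist2h2ac with Hist2h2be and Hist1h2ae with Hist1h2bg differ by more than 8-fold. These heights hold for the gene table, and 3 of these 4 pairs stand otherwise in the other quantification.

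Within the clusters, 12 pairs of members start back to back on opposite strands within 500 bases of each other, and all 12 join an H2A gene to an H2B gene. The plot of these pairs shows unlike ratios of the gene table's levels within pairs. The pair members below were named after their values were seen. Hist1h2ah had 105 and 100.4 TPM in replicates 1 and 2, and its partner Hist1h2bk 111 and 98.3 TPM. Hist1h2ai and Hist1h2bl were likewise within 0.01 of each other in mean level on the log2 scale. Hist2h2ac had 56.2 and 49.9 TPM, against 3.57 and 3.43 TPM for its partner Hist2h2be, a log2 difference of 3.92. Hist1h2ae had 18.2 and 15.4 TPM, against 152 and 137 TPM for Hist1h2bg. Of these 4 pairs the other quantification kept the gap of Hist2h2ac, with 75.7 and 70.7 TPM, over Hist2h2be, with 5.087 and 4.601 TPM. It gave 116 and 102 TPM to Hist1h2ae, against 102 and 85.3 TPM to Hist1h2bg. Nor were the near-equal pairs equal there, with 118 and 77.0 TPM for Hist1h2ah against 67.1 and 64.2 TPM for Hist1h2bk, and with 159.5 and 149 TPM for Hist1h2ai against 36.6 and 30.5 TPM for Hist1h2bl. Hist2h2be is annotated with 2620 bases and Hist2h2ac with 520, and a level per length moves with these annotated lengths.

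Replacement variants were all detected, and most differed little between the libraries. H3.3, which replaces H3 outside S phase, is made from a pair of genes. H3f3a, at chr1:180800832-180813943 on the minus strand, had the highest level of the 8 with 275.4 and 275.0 TPM in replicates 1 and 2. H3f3b, at chr11:116021912-116027962 on the minus strand, had 132 and 121 TPM. H2afz, for H2A.Z.1, stood at 91.9 and 95.9 TPM at chr3:137864487-137866922, and H2afv, for H2A.Z.2, at 30.4 and 27.4 TPM. H2A.Z is a variant found at promoters and is loaded by the SRCAP and EP400 complexes. H1f0, at chr15:79028450-79030504, encodes H1.0, the linker histone known from differentiated cells, and had 73.2 and 68.5 TPM. H2afy, for macroH2A1, a variant of silent chromatin, had 40.3 and 37.1 TPM, and H2afx 32.9 and 27.6 TPM. H2afj, for H2A.J, had 23.5 and 26.2 TPM, the lowest level of the 8 and one of the pair, with H2afz, that had the higher gene table TPM in replicate 2. The H2afz level includes H2afz-205, a processed transcript, with 0 and 9.74 TPM, while the coding transcript H2afz-201 had 87.6 and 83.2 TPM. In the other quantification H2afz-201 had 139 and 122 TPM.

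Set against their replication-dependent counterparts, the variants were the smaller part in TPM. The summed H3.3 level was 408 and 396 TPM, and its log2 ratio over replication-dependent H3 was -1.29 and -1.12 in replicates 1 and 2. The summed H2A.Z level was 122 and 123 TPM, with log2 ratios over replication-dependent H2A of -3.36 and -3.15. H1.0 over replication-dependent H1 was -2.33 ± 0.12 (SD, n = 2). All 3 ratios were nearer to 0 in replicate 2. The length of the gene models carries part of these values. In expected counts, not divided by length, the H3.3 genes held 13823.9 and 12274.5 counts and the H3 genes 16631.1 and 13340.1, a log2 ratio of -0.19 ± 0.10. In estimated counts of the other quantification that ratio was 0.28 ± 0.10, so H3.3 counts were there the larger.

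**Figure D3:**
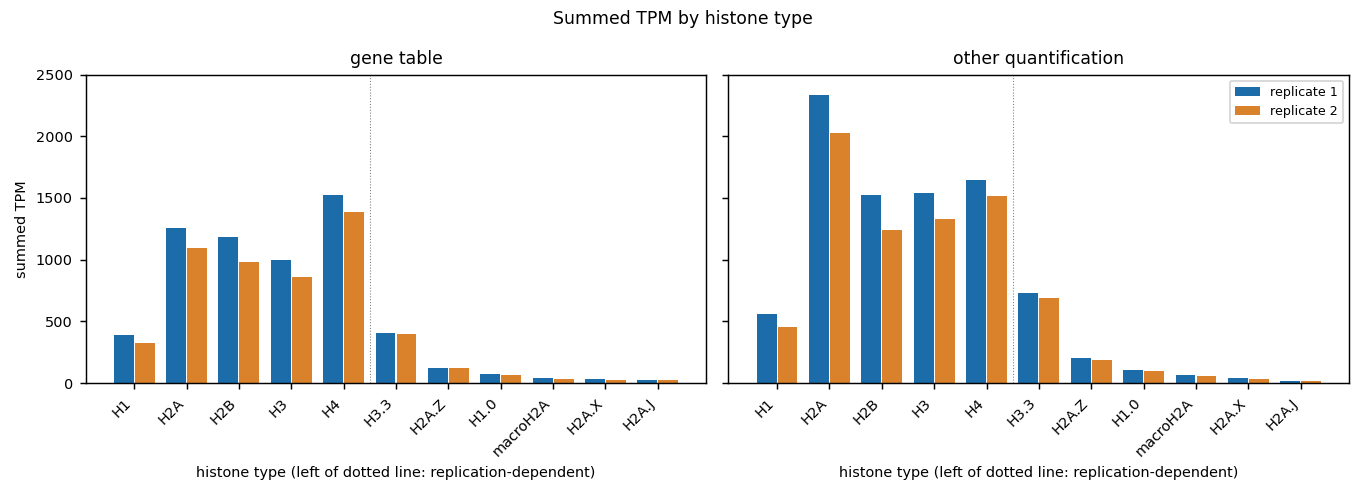
Summed TPM (vertical, from 0) of each histone type in the gene table, left, and in the other quantification, right, with replicate 1 and replicate 2 side by side, and replication-dependent types left of the dotted line. Every replication-dependent type is higher in replicate 1 in both panels, while H2A is the highest type in the other quantification and H4 in the gene table.

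Several variants were read from more than 1 protein-coding transcript in the gene table's own transcript estimates, as a percent of the gene's TPM. H3f3a-201 held 51.1% and 53.0% in replicates 1 and 2 and H3f3a-207 held 40.4% and 39.7%. In the other quantification the order turned, with 32.7% and 33.1% for H3f3a-201 and 62.2% and 62.3% for H3f3a-207. H2afv-201 held 67.2% and 68.2% and H2afv-202 held 32.8% and 31.8%, an order kept in the other quantification. H2afy-202 held 35.2% and 30.7% and H2afy-201 held 16.3% and 16.1%, beside H2afy-204, a processed transcript, with 29.3% and 31.4%. The order of these coding transcripts turned in the other quantification, with 25.46% and 24.63% for H2afy-202 and 31.63% and 33.97% for H2afy-201. H2afy-204 held 31.71% and 30.48% there. H2afj-202 held 66.5% and 61.7%, but the other quantification gave all of H2afj to H2afj-201. H3f3b was named by the rule as a variant, and its dominant coding transcript was H3f3b-201 with 48.7% and 49.1% in the gene table and H3f3b-202 with 54.0% and 54.3% in the other. Its processed transcripts H3f3b-204 and H3f3b-203 held 45.2% and 46.0%, and 5.67% and 4.73%, in the gene table. In the other they held 29.6% and 32.9%, and 16.4% and 12.8%. The H3f3b and H3.3 levels and ratios above are of whole genes and include these processed transcripts.

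Between the libraries, replication-dependent histones were somewhat higher in replicate 1. Their summed counts, scaled with TMM, had a ratio of replicate 1 over replicate 2 of 1.11 (exact 95% interval 1.10 to 1.12), and 55 of the 64 members with a summed count of at least 20, which were tested, had a log2 ratio above 0. The median log2 ratio was 0.15 for these 64 members and 0.01 for all 18883 genes tested. By type the ratio was 1.17 (1.14 to 1.20) for H1, 1.10 (1.08 to 1.13) for H2A, 1.13 (1.11 to 1.16) for H2B, 1.12 (1.09 to 1.14) for H3 and 1.04 (1.02 to 1.06) for H4. For the replacement variants it was 1.02 (1.00 to 1.04), with a median log2 ratio of 0.06 over 8 genes. Each of these ratios stayed above 1 with size factors from DESeq2, total counts, spike-in totals, posterior mean counts and the other quantification. The interval of the replacement variants then included 1 with DESeq2 size factors, spike-in totals and the other quantification, and that of H4 with the other quantification. The intervals cover counting error only, and with 2 libraries of 1 group no test over animals is possible, since sign flips cannot give an exact p under 0.5.

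**Figure D4:**
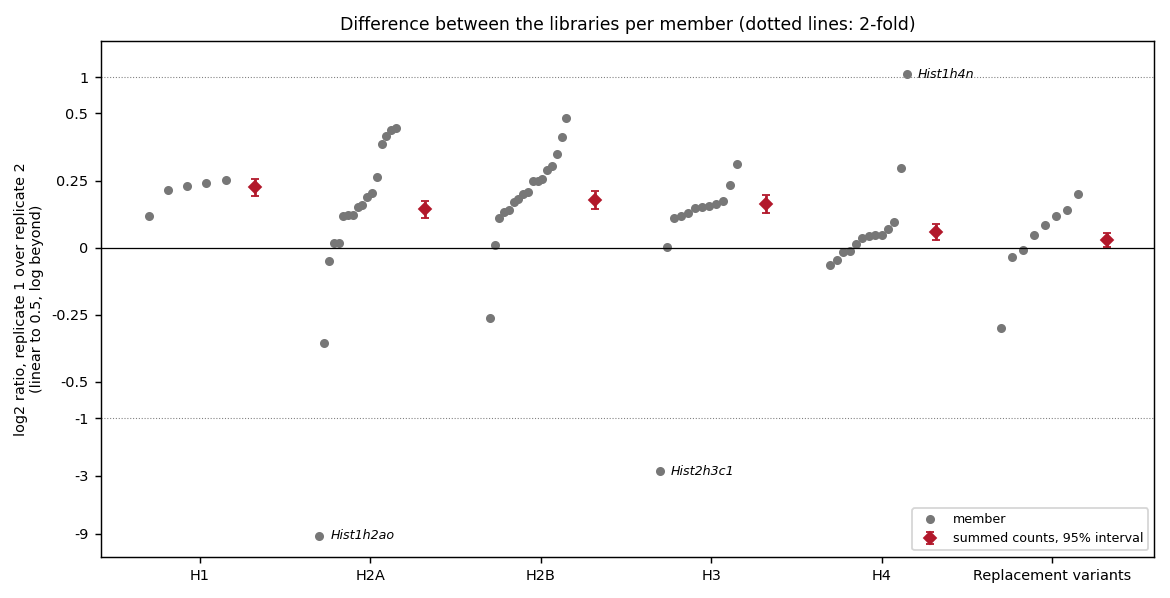
Log2 ratio of replicate 1 over replicate 2 (vertical, linear to 0.5 and logarithmic beyond) for each tested member, grey, and for the summed counts of each type with an exact 95% interval, red. All 5 H1 genes and most H2A, H2B and H3 genes lie above 0, H4 genes lie around 0, and the 3 members past 2-fold are named. Hist1h2ao is drawn with a prior count of 0.5 and its position is no bound.

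Counted gene by gene, 29 of the 64 replication-dependent members had an adjusted p under 0.05 at any fold and were higher in replicate 1, and 4 were higher in replicate 2 (exact binomial test between the libraries, Benjamini-Hochberg over 18883 genes). Of all genes tested, 12.2% were called higher in replicate 1 and 13.9% in replicate 2 in this way. Such calls grow in number with the counts of a gene and have no replicate check. The deposited credibility intervals of TPM lay apart between the libraries for 23 of the 64 members and overlapped for 41. The calls in replicate 2 include Hist1h2ao, Hist2h3c1 and Hist2h2aa1, each with a copy of identical coding sequence. Summed with these copies, each was higher in replicate 1, for Hist2h2aa1 with Hist2h2aa2 at a ratio of 1.10 (1.06 to 1.14). Among the H1 genes 4 of 5 were called and all in replicate 1, among H2A genes 6 of 17 in replicate 1 and 2 in replicate 2, among H2B genes 10 of 17 and 1, among H3 genes 7 of 12 and 1, and among H4 genes 2 of 13 and none. Hist1h1c had the smallest adjusted p of the H1 genes, 6.89e-19, with a ratio of 1.18 (1.14 to 1.22). Hist2h3b had a ratio of 1.24 (1.17 to 1.31) and Hist1h4k of 1.23 (1.15 to 1.32). Of the replacement variants, 3 of 8 were called higher in replicate 1 and 1 in replicate 2. H2afx had a log2 ratio of 0.20 with an adjusted p of 0.00297, and H2afj of -0.30 with an adjusted p of 0.000432 in the same exact binomial test. Those 2 genes were the most different of the 8, in opposite directions.

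At 2-fold and an adjusted p under 0.05, 3 of the 72 tested members passed, against 6.74% of all 18883 genes, and none was a replacement variant. Hist1h2ao, an H2A gene, had 0 and 300.1 expected counts in replicates 1 and 2, and 0 allows up to 3 counts. Hist2h3c1, an H3 gene, had 7.57 and 49.8 counts, which are 0.13 and 0.92 TPM. Hist1h4n, an H4 gene, had 539 and 232 counts, which are 48.3 and 22.5 TPM. Each has a copy with an identical coding sequence in the same cluster, and each has deposited credibility intervals that overlap between the libraries. For Hist1h4n these ran from 28.9 to 60.2 TPM in replicate 1 and from 9.96 to 41.5 TPM in replicate 2. The authors' posterior mean TPM of Hist1h2ao was 7.73 in replicate 1 and 24.9 in replicate 2. With its copy Hist1h2ap, Hist1h2ao summed to 2279.8 and 1833.8 counts, a ratio of 1.12 (1.05 to 1.19). With Hist2h3c2, Hist2h3c1 summed to 1561.0 and 1293.4 counts, a ratio of 1.08 (1.01 to 1.17). With Hist1h4m, Hist1h4n summed to 2536.2 and 2105.2 counts, a ratio of 1.08 (1.02 to 1.15). In the other quantification Hist2h3c1 and Hist1h4n stood at 5.66 and 4.55 TPM and at 2.05 and 2.23 TPM in replicates 1 and 2. The sums of the 3 pairs therefore differed by up to 1.12-fold between the libraries, and none of them by 2-fold.

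**Figure D5:**
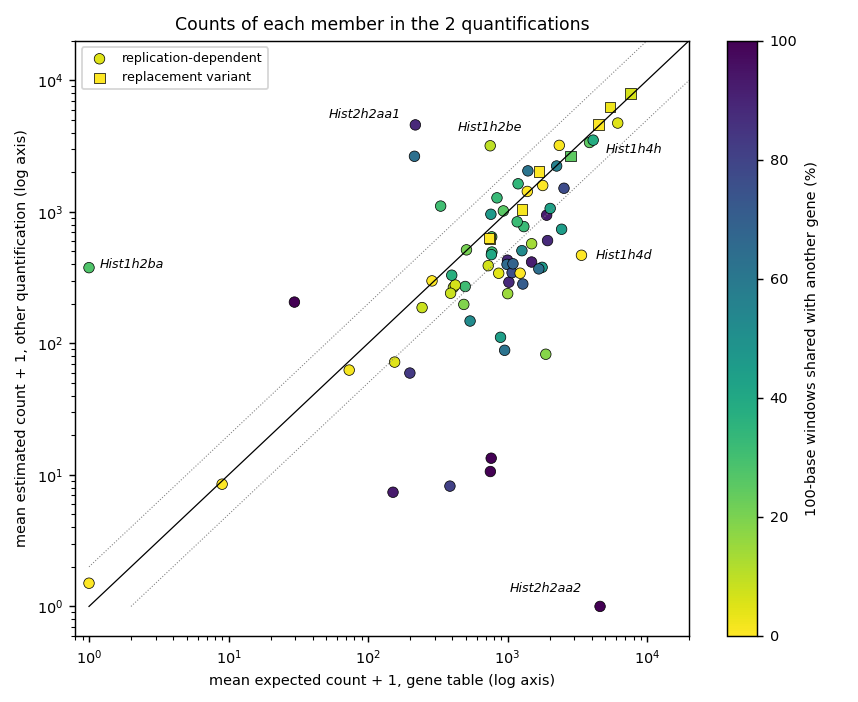
Mean count plus 1 of each member over the 2 libraries in the gene table (horizontal) and in the other quantification (vertical), both on log axes, coloured by the percent of its 100-base windows that also occur in another gene. Squares are replacement variants and lie along the line of equality, while replication-dependent genes scatter below it and beyond the dotted 2-fold lines, with Hist2h2aa2 at 0 in the other quantification.

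Counts of single replication-dependent genes differed between the quantifications, as the plot of both shows. The gene table assigned 88978.7 and 72124 expected counts to these genes in replicates 1 and 2, and the other quantification 63002.9 and 50070 estimated counts. The replacement variants held 26390.6 and 23204.8 counts in the gene table, against 27646.1 and 23908.7 in the other. The median log2 ratio of gene table over other counts was 0.89 over 64 replication-dependent genes with a mean count of at least 20, with 30 more than 2-fold higher in the gene table and 5 in the other. It was 1.68 for the 25 genes with at least 50% of their 100-base windows in another gene, 0.61 for the 39 genes with fewer, and 0.02 for the 8 replacement variants. Of the 25 genes 22 were beyond 2-fold in either direction, of the 39 genes 13, and of the replacement variants none. It was 1.44 for the 15 genes with under 50 annotated bases after the stop codon and 0.70 for the other 49. The 2 quantifications also used unlike effective lengths. For the 62 replication-dependent genes with 1 transcript the median annotated length was 529 bases, the median effective length 430 bases in the gene table and 208 in the other, and a shorter effective length gives a higher TPM for the same count. The parts of shared windows, of annotated bases after the stop codon and of effective length in the gap were not tested.

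Some genes held unlike shares of their type in the 2 quantifications. Hist2h2aa2 held 30.3% of H2A counts in the gene table and 0% in the other quantification. Hist2h2aa1 held 1.43% in the gene table and 36.1% in the other. The pair sum was 5308.4 and 4335.1 counts in the gene table and 5115.8 and 4047.7 in the other. Gm20634, a processed transcript annotated at chr3:96245554-96248509 over both Hist2h2aa1 and Hist2h3c1, had 225 and 249.6 counts in the gene table and 857.9 and 783.6 in the other, and was named after its values were seen. Hist1h2be held 5.25% of H2B counts against 31.5%. Hist1h2bg had 2664.1 and 2217.2 counts in the gene table, against 829.9 and 642.4 in the other. Hist1h4h held 20.05% of H4 counts against 45.7%, and Hist1h4d 16.5% against 6.08%. Hist1h4d shares no 100-base window with another gene, and the cause of its gap was not tested. Summed H4 counts were 2.67-fold higher in the gene table than in the other quantification, while for H1 the ratio was 1.09. Hist1h2ba, at 0 in the gene table, had 172.9 and 108.8 TPM in the other quantification, and was named after its values were seen.

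Genes that make, process and deposit histones were detected beside them, and none tested passed the 2-fold threshold between the libraries. Of all genes tested 6.74% passed it, so few calls could be expected in lists this short. Of 21 listed genes of histone mRNA transcription, 3′ end processing and decay, 20 were in the tables, 19 were detected and none of 20 tested passed the threshold, with a median log2 ratio of 0.02. The 3 highest were Srrt, a cap-complex partner, with 57.1 and 46.8 TPM, Sympk, the scaffold of the cleavage complex, with 29.4 and 28.3 TPM, and Cpsf3, its endonuclease, with 24.6 and 25.3 TPM. Slbp, which binds the stem-loop, had 18.7 and 17.3 TPM, and Npat, the S-phase activator of histone gene transcription, had 5.29 and 4.81 TPM, both named after their values were seen. Of 28 histone chaperone and exchange genes all 28 were detected and none passed, with a median of 0.03. The 3 highest were Rbbp7 with 58.6 and 52.4 TPM, Nap1l4 with 50.7 and 48.0 TPM and Rbbp4 with 48.1 and 49.7 TPM. Of 24 S-phase and cell cycle genes all 24 were detected, 17 had a log2 ratio above 0, none passed, and the median was 0.07. Of all 18883 genes tested 52.4% had a log2 ratio above 0. At any fold, Mki67, Mcm2 and Rrm1 had an adjusted p under 0.05 in the exact binomial test, with log2 ratios of 0.18, 0.16 and 0.15. So did Rrm2 in the other direction, with -0.18. Mki67, Mcm2, Rrm1 and Rrm2 were named after their values were seen. Pcna, the sliding clamp of replication, had 36.0 and 37.7 TPM, Top2a, a topoisomerase, 24.1 and 22.3 TPM, and Mcm7, a subunit of the replicative helicase, 22.6 and 21.8 TPM.

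Of 12 other histone variant genes found in the tables, 4 were detected and none of these 4 passed the threshold. Cenpa, the centromeric H3, had 17.8 and 17.4 TPM, and H1fx, a linker histone, 10.2 and 10.3 TPM. H3f3c, annotated as a processed pseudogene of H3.3, had 8.54 and 12.7 TPM in the gene table and 0 counts in the other quantification. The counts of 5 of the others were 0 in both libraries.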

How the data were processed

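Total RNA was measured in 2 libraries of 1 group. Each library has a gene table and transcript table of 1 quantification and a transcript table of another, deposited by the authors on mm10 with annotation M21, per the file headers and notes. The gene table holds expected counts, TPM and credibility bounds of TPM (a signal range), and its transcript table the percent of a gene's TPM per transcript, all deposited by the authors. In the second quantification the authors deposited estimated counts and TPM. Aligner, quantifiers, their versions and any use of the strand in counting are not given in the sources, which leaves overlapping and antisense genes uncertain.

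The members and gene lists were chosen with earlier results of these data known. Genes named are every replacement variant, the 4 highest of each replication-dependent type by mean TPM, members past the threshold, the 3 in each direction whose share of their type differs most between quantifications, members with more than 1 coding transcript at 10% or more of TPM in both libraries, and the 3 highest of each of 4 lists. Other names are marked as chosen after their values were seen. Ars2, an older symbol of Srrt, and H3f5 had no entry in the tables.

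Expected counts were rounded and scaled with TMM in edgeR 4.0.16, with size factors from DESeq2 1.42.0 as an alternative, in R 4.3.3. With 1 group the edgeR quasi-likelihood test has no contrast. The libraries were compared by a two-sided exact binomial test on each gene whose counts summed to 20 or more, doubling the smaller tail, and p-values were adjusted after Benjamini and Hochberg over all genes tested. A log2 ratio has replicate 1 on top, and 0.5 was added as prior count. Intervals are exact 95% Clopper-Pearson intervals and, like the limit of 3 counts for a count of 0, cover counting error only. Neither covers how reads are shared out among genes with common sequence. Levels are the mean and SD over 2 libraries, which limits their precision. Windows, stem-loops, coding identity and motifs were computed under Python 3.11.15 (scipy 1.17.1, pandas 2.3.3, numpy 2.4.6), figures were drawn with matplotlib 3.10.9, and the test was checked on simulated data. Features with a bare number as ID took 1.96e-05% and 1.8e-05% of counts and stayed out of totals and tests. A chi-square test of the counts gave 57.8 per gene over 18883 genes, so the libraries differ by more than sampling noise. Alternatives were another quantification, point estimate, scaling, filter or denominator and each library alone.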

Additional observations from a re-analysis of the deposited data

Results flagged for a closer look

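A pair of histone symbols outside the rule, because their transcripts are annotated as pseudogenes, held counts above the 3 counts that a count of 0 allows. Hist1h2al had 547.62 and 502.37 expected counts in replicates 1 and 2, which are 67.8 and 67.0 TPM, and 0 counts in the other quantification. Hist3h2bb-ps had 49.14 and 25.6 expected counts in replicates 1 and 2, against 56.1 and 29.2 estimated counts in the other quantification. Hist1h2aj, the third such symbol, had 0 counts in both libraries and both quantifications. With 2 libraries no sample can be set apart from the others of its group.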

How the results depend on the processing

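Detection held under every alternative run, with 68 to 71 of the 75 members, and all results below come from these 2 libraries. Leaving out a library gave 4651.5 to 5344.6 TPM for the replication-dependent sum, 678.24 to 699.65 TPM for the replacement sum, -1.29 to -1.12 for the log2 ratio of H3.3 to H3, -3.36 to -3.15 for that of H2A.Z to H2A and 70 to 71 members detected. With the other quantification the sums were 7090.4 and 1118 TPM and the ratios -1.01 and -3.47. Rescaled over nuclear protein-coding genes, without those of the mitochondrial genome, the sums were 14967 and 2065.4 TPM. These nuclear genes hold 34.04% and 32.68% of TPM in replicates 1 and 2. In counts the ratios were -0.19 and -2.09. The 3 members past the threshold stayed at 2 or 3, but were 0 in the other quantification, where 1250 of 20422 genes passed. There Hist1h2ao and Hist1h4n were under the summed count of 20 and not tested, so that of the 3 only Hist2h3c1 was. The log2 ratio of Hist2h3c1 was -2.73 in the gene table and 0.23 there. That of Hist1h4n was 1.06 and fell to 0.81 with posterior means. Alternatives chosen after seeing the data moved the log2 ratio of summed replication-dependent counts, 0.15, to 0.21 with total counts, 0.13 with spike-in totals and 0.13 without members sharing 50% or more of their windows, and moved that of the replacement variants, 0.030, to 0.092 with total counts. The cause was not tested. No paired analysis was possible because the series has 1 group. The comparison between libraries cannot leave out a library.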
